A study of Mus musculus with 12 samples.

Results

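Collagens and the genes of the stromal matrix around them were examined in MYCN-driven neuroendocrine tumors of the mouse. The set held 55 of the 18193 genes with a named probe set on the array. Of these, 42 are collagen chain genes, taken by their symbol, and 13 are other genes of fibroblasts, pericytes and matrix: Dcn, Lum, Bgn, Fn1, Postn, Sparc, Lox, Mmp2, Timp1, Pdgfra, Pdgfrb, Acta2 and Tagln. A further gene that the rule asked for was paired with no probe set in the annotation used here and was not analysed. Each gene was read by the 1 probe set with the highest mean over the 12 tumors, out of the 109 probe sets that the 55 genes have.

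The tumors came from untreated LSL-MYCN;hGFAP-Cre mice, in which Cre under the human GFAP promoter removes a stop cassette and turns on MYCN, so every tumor carried both transgenes. There were 9 tumors of the pancreas (numbers 1 to 5 and 9 to 12) and 3 tumors labelled as brain (numbers 6, 7 and 8), which the paper places at the pituitary gland and which are called pituitary tumors here. Each tumor was measured on 1 array, and the labels give neither age nor sex. Some mice had tumors at both sites, and since the labels do not tie a tumor to a mouse, the tests treat tumors as independent. No normal tissue and no tumor of another driver was analysed here. Values are the log2 signals deposited by the authors, in which a difference of 1 is a 2-fold difference in signal. All differences are given as pancreatic minus pituitary.

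Collagens are secreted as chains that wind into triple helices. Type I collagen, the main collagen of fibrous stroma, is built of α1 chains from Col1a1 and an α2 chain from Col1a2, and it is laid down in fibrils together with type III collagen, a homotrimer of the Col3a1 product, and type V collagen. Type IV collagen forms the sheet of the basement membrane under epithelium and around vessels, and in most tissues its helix is made of the chains of Col4a1 and Col4a2. In endocrine tumors these genes are read mainly from fibroblasts, pericytes and vessel walls. A bulk tumor sample mixes these with the tumor cells, so that fewer stromal cells and less RNA per stromal cell cannot be told apart.

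The bases before the annotated starts of Col1a2 and Col3a1 are shown because only Col1a2 was called between the sites. Across pancreatic tumors the 2 genes were called as correlated by Pearson's r but not by Spearman's rho. That call was lost without tumors 1 and 11. The bases before the start of Col7a1 are shown because it was the other collagen called higher in the pituitary tumors. The sequences are from RefSeq on the mouse build GRCm38.p6, for the stretches chr6:4505368-4505617, chr1:45311288-45311537 and chr9:108953336-108953585, each on the plus strand, 5′ to 3′, ending at the base before the start. Capitals mark the CCAAT box, the core of the GC box, which reads GGGCGG, or the TATA box in the form TATAAA. Both strands were searched, and the matches do not overlap.
Col1a2: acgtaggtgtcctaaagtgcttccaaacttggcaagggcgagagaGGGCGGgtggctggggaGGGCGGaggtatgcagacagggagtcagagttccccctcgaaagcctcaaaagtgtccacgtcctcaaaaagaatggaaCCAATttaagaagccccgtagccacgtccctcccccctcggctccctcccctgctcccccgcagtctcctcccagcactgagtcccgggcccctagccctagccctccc
Col3a1: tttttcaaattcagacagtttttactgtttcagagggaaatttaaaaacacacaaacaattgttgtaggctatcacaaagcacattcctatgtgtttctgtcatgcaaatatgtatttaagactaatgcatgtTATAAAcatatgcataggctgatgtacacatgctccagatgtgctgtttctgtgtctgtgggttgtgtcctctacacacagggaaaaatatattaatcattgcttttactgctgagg
Col7a1: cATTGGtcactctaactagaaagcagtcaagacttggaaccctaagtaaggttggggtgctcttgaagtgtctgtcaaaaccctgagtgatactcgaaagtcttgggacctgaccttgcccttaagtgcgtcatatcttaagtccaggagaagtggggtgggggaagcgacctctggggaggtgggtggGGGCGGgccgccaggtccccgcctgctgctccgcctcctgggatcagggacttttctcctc
The Col1a2 stretch is 62% G and C and holds CCAAT 104 bases before the start, and GGGCGG 182 and 199 bases before it. The Col3a1 stretch is 35.2% G and C and holds TATAAA 111 bases before the start. Among all 32851 promoter stretches of this length in the table, 33.8% hold CCAAT, 32.7% GGGCGG and 12.4% TATAAA. Of the 39 members with a stretch in the table, 14 hold CCAAT, 22 hold GGGCGG and 6 hold TATAAA. A member was counted if any of its stretches held the motif, while the shares are of single stretches. The counts can therefore not be set against the shares.

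Col4a1 and Col4a2 lie head to head on chromosome 8 and are read in opposite directions from a shared promoter. The starts used for them are 22 bases apart when both are counted, with Col4a2 on the plus strand and Col4a1 on the minus strand. Read from these starts the transcripts overlap, so the bases from one start to the other lie inside both and not before them. The annotated span of Col4a1 reaches chr8:11312889, so the start used for it is not the outermost. The stretch from one start to the other, chr8:11312805-11312826, is shown because both genes were higher on average in the pancreatic tumors. It holds GGGCGG once, on the strand of Col4a2 from base 8 on, and neither of the other motifs.
Col4a2/Col4a1: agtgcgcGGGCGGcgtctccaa

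Matrix genes gave signal in tumors of both sites. The 3 genes taken to mark stroma, Col1a2, Col3a1 and Dcn, exceeded the array's median signal in all 12 tumors, as did 23 of the 55 members in all. A further 21 members did so in some tumors, and 11 did so in none, among them cartilage collagen Col2a1. These counts are of the 1 probe set read for each gene. The array median served as a rough line for background, and differences of members below it may not reflect transcript levels. The medians of the 12 arrays lay between 5.45 and 5.69, and the arrays of pancreatic tumors 10, 11 and 12 had a lower mean signal (5.97 to 5.98) than the others (6.06 to 6.10).

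Between the sites, 3 of the 55 members passed the test (limma, adjusted over all 45037 probe sets). An unadjusted p under 0.05 was found for 16 members, these 3 included. The share of all genes at that level is not given here, so the 16 cannot be set against it. Col4a2 was higher in the pancreatic tumors, 1 of 55, against 1.63% of all genes. Col1a2 and Col7a1 were higher in the pituitary tumors, 2 of 55, against 4.29% of all genes. Both shares are near those of all genes. Differences were positive for 32 members and negative for 23, with a median of 0.14 against 0.04 over all genes. On the probe sets used, every pancreatic tumor exceeded every pituitary tumor for 4 members, Col4a1, Col14a1, Col18a1 and Tagln, against 4.21% of all genes. The reverse held for Col1a2 and Col7a1, against 5.21% of all genes.

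**Figure D1:**
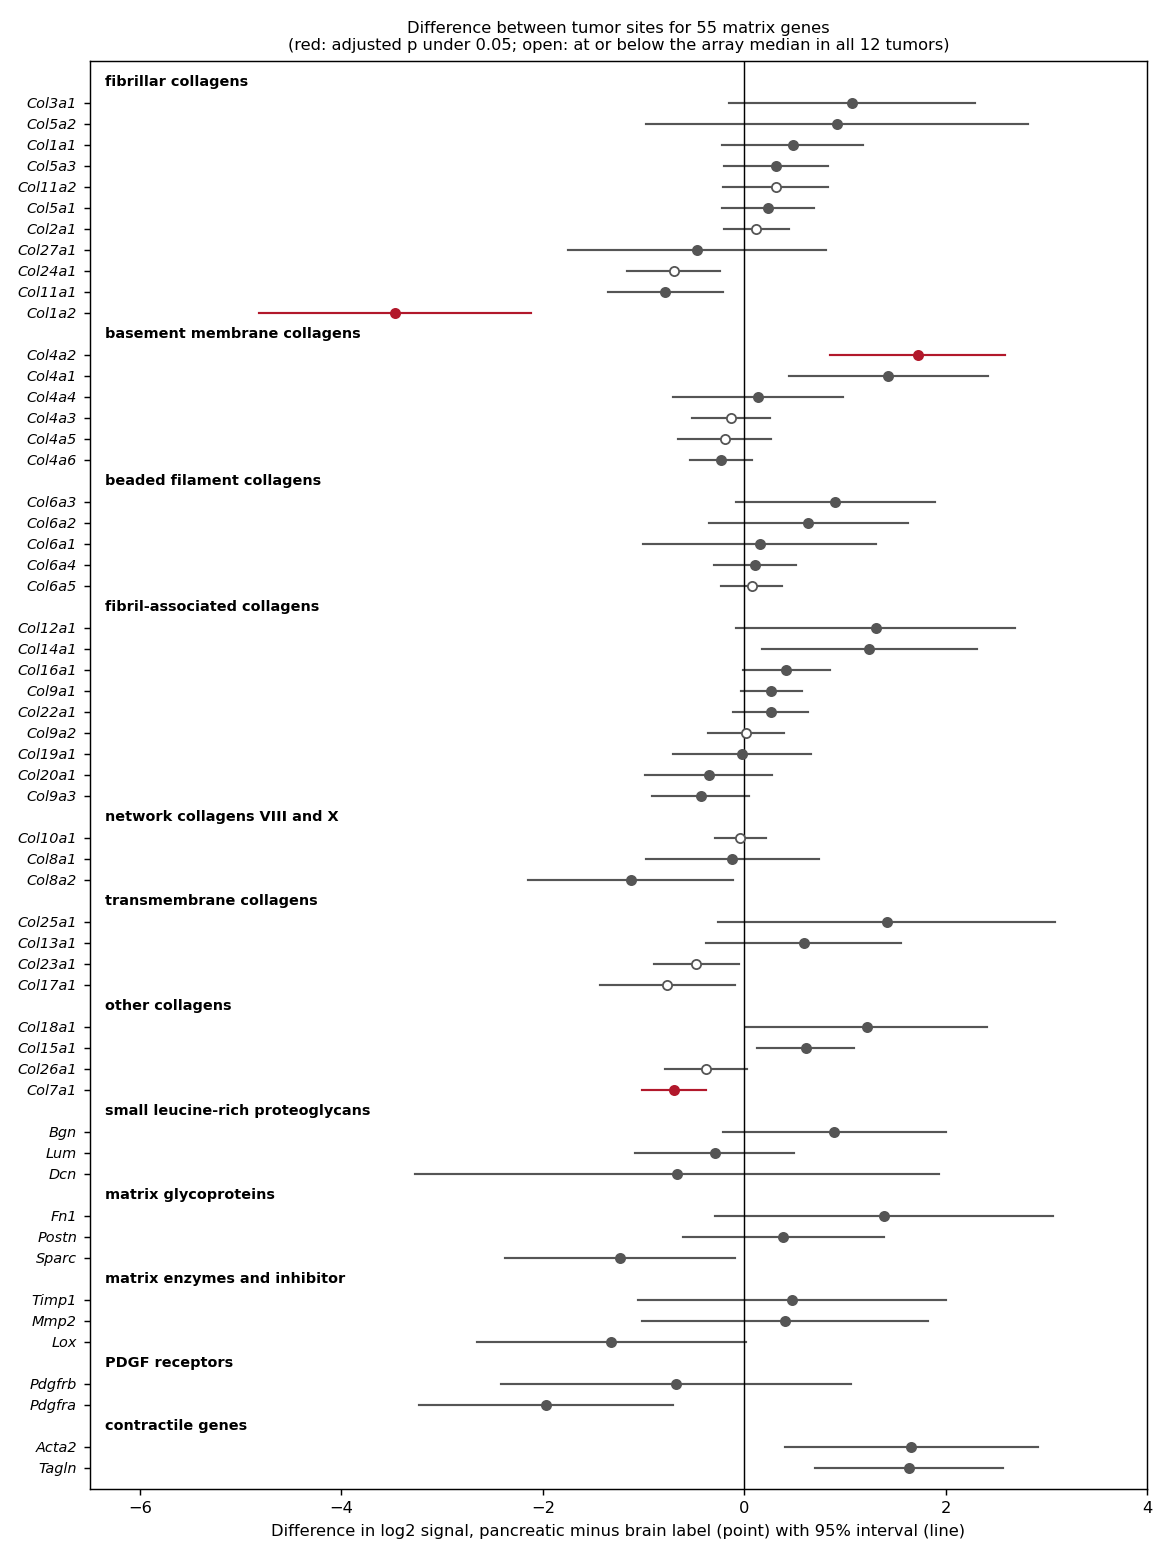
Difference in log2 signal between 9 pancreatic and 3 pituitary tumors (labelled brain) for the 55 genes, by family, with its 95% interval. Points right of 0 were higher in the pancreatic tumors. Red marks the 3 genes past the adjusted threshold, Col1a2 and Col7a1 on the left and Col4a2 on the right, and open points mark the 11 genes at or below the array median in every tumor.

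Col1a2 showed the largest difference of the 55 genes. This gene at chr6:4505618-4541543 had signals of 7.53 at the lowest, in tumor 11, 9.38 at the median and 10.48 at the highest, in tumor 5, among the pancreatic tumors. The pituitary tumors had 13.41 in tumor 6, 13.13 in tumor 7 and 11.33 in tumor 8. All 3 lay above every pancreatic tumor. The means were 9.16 ± 0.98 (SD, n = 9) and 12.63 ± 1.13 (SD, n = 3), a difference of -3.47 (SE 0.62, adjusted p = 0.00779), or 11.1-fold more signal in the pituitary tumors. The call was lost when pituitary tumor 6 was left out (difference -3.08, adjusted p = 0.0648) and held when any 1 of the other 11 tumors was left out. Without tumors 6 and 8 together, which leaves tumor 7 as the only pituitary tumor and takes the spread from the pancreatic tumors alone, the difference was -3.98 (adjusted p = 0.104).

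A second probe set of Col1a2 read in the same direction, with 10.11, 10.33 and 8.04 in pituitary tumors 6, 7 and 8 and 6.06 to 8.25 in the pancreatic tumors. Its difference was -2.40 (adjusted p = 0.034), and pancreatic tumor 9 exceeded pituitary tumor 8 on it. The third probe set of the gene stayed below the array median in all tumors.

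**Figure D2:**
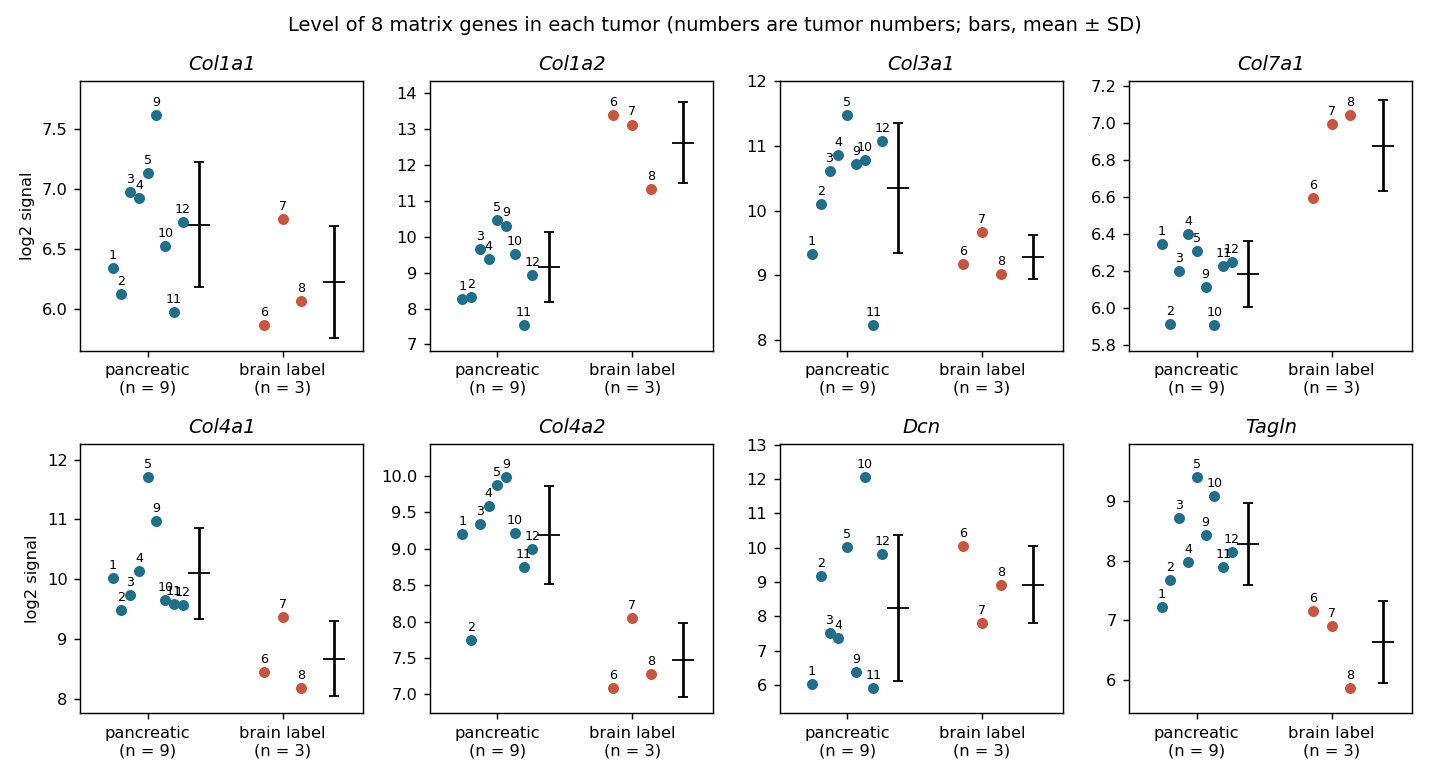
Log2 signal of 8 matrix genes in each tumor, pancreatic on the left and pituitary (labelled brain) on the right of each panel, with tumor numbers beside the points and the mean ± SD beside each group. Each panel has its own scale. Col1a2 and Col7a1 lie higher in all 3 pituitary tumors, Col4a1 and Tagln lie lower, and Dcn spreads from 5.91 to 12.04 in the pancreas.

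Col3a1, of the same fibrils, and Col1a1, the partner chain of Col1a2, did not show the pattern of Col1a2. Col3a1, at chr1:45311538-45349706, ranged from 8.22 in tumor 11 through a median of 10.72 to 11.48 in tumor 5 in the pancreas, and had 9.17, 9.66 and 9.02 in pituitary tumors 6, 7 and 8. The pituitary values fell within the pancreatic range, toward its lower end, and the difference of 1.07 (95% interval -0.15 to 2.29) did not pass the test (adjusted p = 0.321). On the other probe set of Col3a1, pituitary tumors 6 (5.35) and 8 (5.11) lay below every pancreatic tumor (5.45 to 7.42), and tumor 7 read 5.95. Tumors 6 and 8 were at or below the array median there, and the difference was 1.08 (adjusted p = 0.172). Col1a1, at chr11:94936224-94953042, read 5.97 to 7.62 in the pancreas and 5.86, 6.75 and 6.06 in pituitary tumors 6, 7 and 8. Its difference was 0.48 (95% interval -0.22 to 1.18, adjusted p = 0.445). The other probe set of Col1a1 ordered the tumors differently, with its highest signal in pancreatic tumor 10 (7.41) where the first had 6.53, and its difference was 0.98 (adjusted p = 0.157). It was at or below the array median in all 3 pituitary tumors (5.35, 5.07 and 5.12). Signals of Col1a1 were thus low at the pituitary on both probe sets, which limits its comparison with Col1a2.

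The change of Col1a2 relative to Col1a1 and Col3a1 was therefore read on each array as the difference between probe sets, a comparison chosen after the values were seen. Levels of different probe sets cannot be compared, so only how this difference moved between tumors has meaning. Col1a2 minus Col1a1 lay between 1.56 and 3.35 in the 9 pancreatic tumors and between 5.27 and 7.55 in the 3 pituitary tumors. Col1a2 minus Col3a1 lay between -2.15 and -0.40 in the pancreas and between 2.31 and 4.24 at the pituitary. The groups did not overlap in either, with mean differences between sites of -3.95 and -4.54. These pairs were chosen for the high Col1a2 values at the pituitary, so they describe that difference again and are given with no test.

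**Figure D3:**
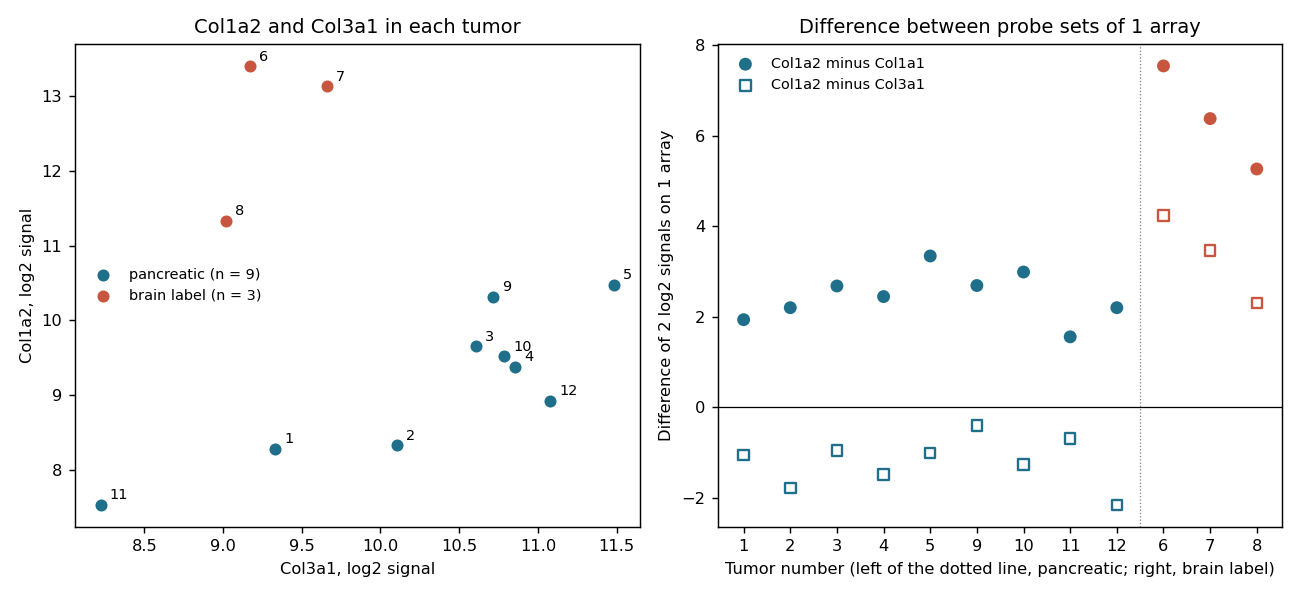
Left, log2 signal of Col1a2 against Col3a1 in each tumor. Right, log2 signal of Col1a2 minus that of Col1a1 (filled circles) or Col3a1 (open squares) on the same array. In the pancreatic tumors Col1a2 tends to rise with Col3a1. The 3 pituitary tumors sit above them, with differences of 5.27 to 7.55 for Col1a1 and 2.31 to 4.24 for Col3a1.

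Among the other fibrillar collagens, Col5a2 and, on the probe set used, Col27a1 had their highest signals in single pancreatic tumors. Col5a2, a chain of type V collagen that lies beside Col3a1 on chromosome 1, ranged from 6.19 in tumor 11 to 11.72 in tumor 2, with a pancreatic median of 7.82, and read 7.59, 6.89 and 7.29 in the pituitary tumors. Tumor 2 stood apart on both of its probe sets, and the sites differed by 0.92 (adjusted p = 0.600). The change of Col5a2 relative to Col3a1 did not differ between sites beyond its spread (difference -0.15, exact permutation p = 0.923, two-sided). Col27a1 reached 10.50 in pancreatic tumor 5 against 7.21 to 8.72 in the other pancreatic tumors and 7.88 to 9.29 at the pituitary. Its difference between sites was -0.47 (adjusted p = 0.697). On the other probe set of Col27a1, above the array median in all tumors, tumor 5 did not stand apart. It read 6.91 there, below 7.09 in tumor 4, and the pituitary tumors read 8.61, 7.79 and 6.54. The difference on that probe set was -1.09 (adjusted p = 0.15). Col11a1 and Col24a1, named after their values were seen, had differences of -0.79 (adjusted p = 0.117) and -0.70 (adjusted p = 0.0874), but both stayed at or below the array median in all 9 pancreatic tumors, and Col24a1 in the pituitary tumors as well. The other probe set of Col11a1 read 2.94 to 3.53 in the pancreas and 5.05, 5.00 and 3.28 in pituitary tumors 6, 7 and 8. Its difference of -1.29 passed the test (adjusted p = 0.0355), as did the mean of both probe sets (-1.04, adjusted p = 0.0389), although this probe set was at or below the array median in all 12 tumors.

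The differences of the 2 main type IV collagen genes were of the opposite sign to that of Col1a2. Col4a2, at chr8:11312805-11449287, had pancreatic signals from 7.74 in tumor 2 through a median of 9.22 to 9.98 in tumor 9, and pituitary signals of 7.08, 8.05 and 7.27. Only pancreatic tumor 2 fell below pituitary tumor 7. Means were 9.19 ± 0.67 (SD, n = 9) and 7.47 ± 0.51 (SD, n = 3), and the difference of 1.72 (SE 0.40, adjusted p = 0.0307) was 3.29-fold. This call held in 6 of 12 fits with 1 tumor left out. It was lost without pituitary tumors 6 or 8 or pancreatic tumors 3, 4, 10 or 12, with adjusted p between 0.0513 and 0.17.

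Col4a1 spanned 9.47 in tumor 2 to 11.70 in tumor 5, with a median of 9.74, and read 8.45, 9.37 and 8.17 in the pituitary tumors. All pancreatic tumors exceeded all pituitary tumors on this probe set, yet the difference of 1.43 (SE 0.45) did not pass the test (adjusted p = 0.101). On the other probe set of Col4a1, pancreatic tumors 2 (7.03) and 3 (7.46) fell below pituitary tumor 7 (7.57). The difference there was 1.27 (adjusted p = 0.107). The difference between Col4a1 and Col4a2 on an array did not change between sites beyond its spread (-0.29, exact permutation p = 0.400). The chains of the specialised basement membranes of kidney and epithelium, Col4a3 to Col4a6, had differences between -0.23 and 0.14 on the probe sets used, and none passed the test. On these, Col4a3 and Col4a5 were at or below the array median in all 12 tumors. The other probe set of Col4a5 read 6.01, 6.41 and 6.42 in the pituitary tumors, above the array median, and 7.00 in pancreatic tumor 2. It was at or below the array median in the other 8 pancreatic tumors, from 2.97 to 4.24, and its difference of -2.20 did not pass (adjusted p = 0.0795).

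Col7a1, which encodes the anchoring fibril collagen under stratified epithelium, was called with a small difference at a low level. Pancreatic signals ran from 5.91 through a median of 6.23 to 6.40, and pituitary signals were 6.60, 6.99 and 7.05. The groups did not overlap, and the difference was -0.69 (SE 0.15, adjusted p = 0.0194), or 1.62-fold. The call was lost without pituitary tumor 7 (adjusted p = 0.0624) or 8 (adjusted p = 0.12).

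None of the other collagen families gave a call on the probe sets used. Type VI collagen, which forms beaded filaments around cells, had 5 members with a named probe set, all with positive differences of 0.07 to 0.90. Col6a3, its large chain, ran from 6.71 to 8.99 in the pancreas, highest in tumor 9, and read 6.24, 7.48 and 5.75 at the pituitary (difference 0.90, adjusted p = 0.302). The fibril-associated collagens had 6 positive and 3 negative differences of 9. Col14a1, named after its values were seen, read 5.50 to 7.81 in the pancreas and 4.66 to 5.45 at the pituitary, without overlap (difference 1.24, adjusted p = 0.183), though all 3 pituitary values were at or below the array median. A second probe set of Col14a1 overlapped, with pancreatic tumors 1 (5.41) and 3 (5.40) below pituitary tumor 6 (5.64). Its difference was 0.42 (adjusted p = 0.405). Col18a1, whose C-terminal fragment is endostatin and which was named in the same way, ran from 7.57 to 10.49, highest in tumor 2, above 7.07, 7.25 and 7.56 at the pituitary (difference 1.21, adjusted p = 0.250). Col23a1, a transmembrane collagen also named after its values were seen, did not pass on the probe set used (difference -0.48, adjusted p = 0.196). Its other 2 probe sets passed, with differences of -0.55 (adjusted p = 0.035) and -0.58 (adjusted p = 0.0497). The mean of its 3 probe sets (-0.53, adjusted p = 0.0282) and the fit with array weights (-0.67, adjusted p = 0.0386) passed too, although all 3 probe sets were at or below the array median in all 12 tumors.

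Of the small leucine-rich proteoglycans, which bind collagen fibrils and regulate their assembly, decorin (Dcn) differed most between tumors of the same site. It had the largest SD of the members among the pancreatic tumors, 2.12, with 5.91 in tumor 11, a median of 7.52 and 12.04 in tumor 10. Pituitary tumors 6, 7 and 8 had 10.05, 7.80 and 8.90, inside the pancreatic range. Its difference between sites was -0.67 (95% interval -3.27 to 1.93, adjusted p = 0.795). Lumican (Lum), the neighbour of Dcn on chromosome 10, was also highest in pancreatic tumor 10 (6.60), though at a low signal with an SD of 0.57, and differed by -0.29 (adjusted p = 0.694). Biglycan (Bgn) ran from 7.69 in tumor 11 to 10.72 in tumor 5, with an SD of 0.92, and read 7.79, 8.21 and 7.99 at the pituitary (difference 0.89, adjusted p = 0.363). The fat markers together were also highest in tumor 10, with a mean log2 signal of 7.19 over 4 genes against 4.50 to 6.00 in the other pancreatic tumors. The adipocyte hormone gene Adipoq had 8.54 there, 6.96 in tumor 12 and 3.88 or less in the others, and what part fat tissue had in the Dcn values was not tested.

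Among the matrix glycoproteins, fibronectin (Fn1), which links cells to collagen, read 7.72 in tumor 1 at the lowest, 9.58 at the median and 12.20 in tumor 2 at the highest. The pituitary tumors had 9.15, 7.03 and 7.83, and the difference of 1.39 did not pass the test (adjusted p = 0.352). Sparc, which encodes the collagen-binding protein osteonectin, ran from 8.99 in tumor 2 to 11.71 in tumor 9, with 11.79, 10.44 and 12.79 in pituitary tumors 6, 7 and 8. On this probe set tumors 6 and 8 exceeded every pancreatic tumor, tumor 6 only just, and tumor 7 did not (difference -1.23, adjusted p = 0.220). A second probe set of Sparc, above the array median in all tumors, read 10.29 in tumor 6. Pancreatic tumors 10 (10.44) and 12 (10.35) exceeded that, and its difference was -0.45 (adjusted p = 0.684). The third probe set had a difference of 0.36 (adjusted p = 0.334). Periostin (Postn), a product of activated fibroblasts, ran from 6.62 to 8.97 in the pancreas and from 6.70 to 7.75 at the pituitary (difference 0.39, adjusted p = 0.679).

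Of the genes for matrix enzymes, lysyl oxidase (Lox), which starts the crosslinking of collagen, ran from 5.48 to 7.14 in the pancreatic tumors and read 6.87 in pituitary tumor 6, 9.89 in tumor 7 and 6.23 in tumor 8. The high value was that of tumor 7 alone, and the difference was -1.32 (adjusted p = 0.263). The gelatinase gene Mmp2 ran from 6.05 in tumor 11 to 9.55 in tumor 3, and the inhibitor gene Timp1 from 5.58 in tumor 2 to 8.91 in tumor 3. Pituitary values lay inside both ranges, with differences of 0.41 (adjusted p = 0.771) and 0.48 (adjusted p = 0.748).

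The receptors for platelet-derived growth factor mark fibroblasts (Pdgfra) and pericytes (Pdgfrb), and Pdgfra is also a gene of oligodendrocyte precursors. Pdgfra was at or below the array median in 8 of 9 pancreatic tumors, with signals of 3.97 to 5.64, and read 8.36, 4.86 and 7.15 in pituitary tumors 6, 7 and 8. Tumors 6 and 8 exceeded every pancreatic tumor and tumor 7 did not, with a difference of -1.97 (adjusted p = 0.0772). Without tumor 7 the difference was -2.94 (adjusted p = 0.0018), and without tumors 6 and 8 it was -0.04. Pdgfrb ranged from 5.27 in tumor 11 to 10.16 in tumor 5 and read 8.09, 8.86 and 7.89 at the pituitary (difference -0.68, adjusted p = 0.679). The other probe set of Pdgfrb, above the array median in all tumors, spread less, from 6.09 in tumor 3 to 7.22 in tumor 5. Tumor 11 read 6.39 on it, the pituitary tumors read 5.99, 6.56 and 6.19, and the difference was 0.20 (adjusted p = 0.66).

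The contractile genes Acta2, smooth muscle α-actin, and Tagln, an actin-binding protein of smooth muscle and myofibroblasts, were both higher on average in the pancreas. Tagln ran from 7.22 in tumor 1 through a median of 8.15 to 9.39 in tumor 5, and read 7.15, 6.91 and 5.87 at the pituitary. The groups did not overlap, and the difference of 1.64 (SE 0.43) lay at the threshold (adjusted p = 0.0508). Quantile normalization (adjusted p = 0.0498) or median centring (adjusted p = 0.0417) put it past the threshold. Acta2 ran from 8.26 to 11.38 against 8.21, 8.42 and 7.09 (difference 1.66, adjusted p = 0.134), and pancreatic tumor 2 fell below pituitary tumor 7.

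Tumors of the pancreas differed from each other in these genes. Over the 23 members above the array median in all tumors, the median SD among the 9 pancreatic tumors was 0.79, against 0.50 over all 9501 genes that met the same condition. Tumor 5 had the highest pancreatic signal for 8 of the 23 and tumor 9 for 7, while tumor 11 had the lowest for 11. Tumor 2 was highest for 3 (Fn1, Col5a2 and Col18a1) and lowest for 5, and tumor 1 was lowest for 5. On the probe sets used, the smooth muscle genes, Col4a1, Bgn, Pdgfrb and Col6a2 were all highest in tumor 5. The other probe sets of Bgn and Pdgfrb were highest in tumor 5 too. Those of Col4a1 and Col6a2 were highest in tumor 10, with 9.09 and 8.62 against 8.89 and 7.88 in tumor 5.

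**Figure D4:**
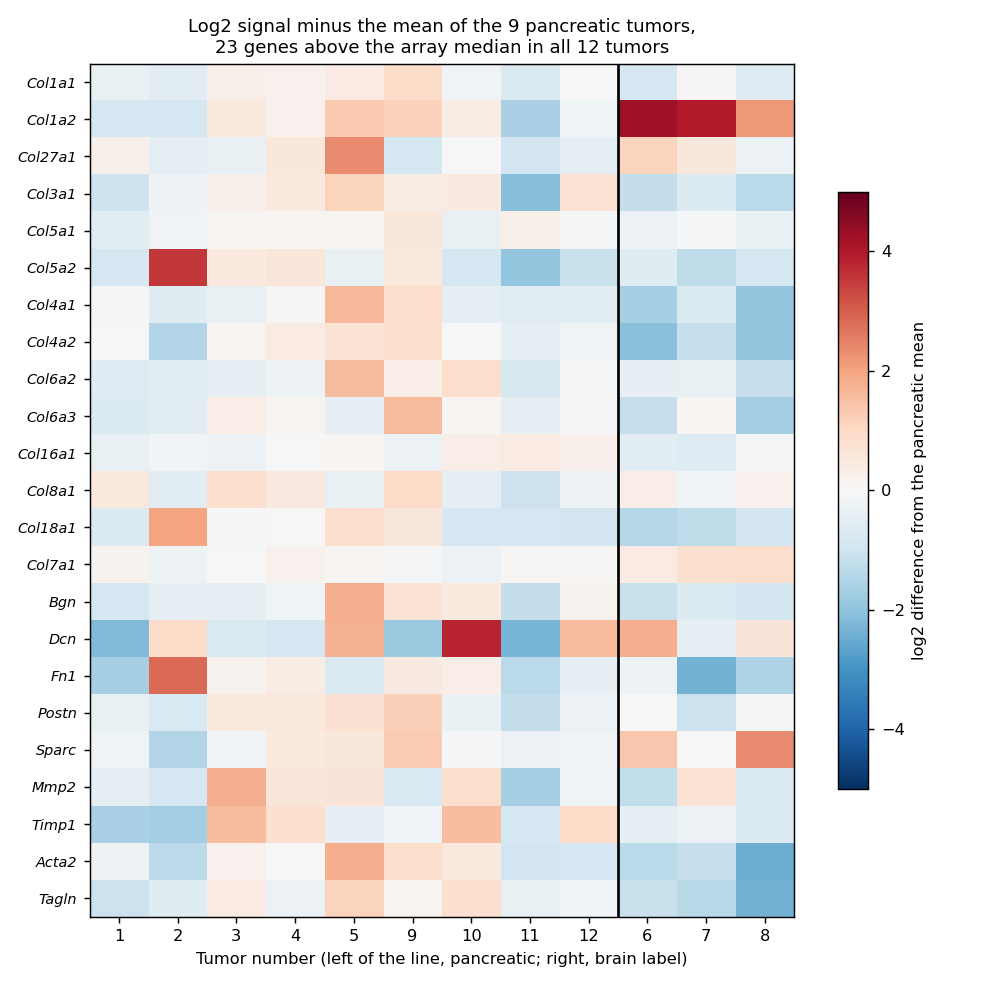
Log2 signal minus the mean of the 9 pancreatic tumors for the 23 genes above the array median in all 12 tumors, with pancreatic tumors left and pituitary tumors (labelled brain) right of the line. Red is above and blue below the pancreatic mean. Tumor 5 is above the mean for most genes and tumor 11 below, Fn1, Col5a2 and Col18a1 stand out in tumor 2, Dcn in tumor 10, and Col1a2 in all 3 pituitary tumors.

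Which genes varied together with Col3a1 was tested over the 9 pancreatic tumors in 21 pairs with an exact permutation of pairings, two-sided. Col1a2 gave r = 0.85 (p = 0.0017, adjusted p = 0.0357) and Spearman's rho = 0.68 (p = 0.0503, adjusted p = 0.200), and it was the only pair to pass by Pearson's r. By Spearman's rho 0 pairs passed, and 3 had an unadjusted p under 0.05. Bgn followed with r = 0.81 (exact p = 0.00994, adjusted p = 0.104) and rho = 0.83 (exact p = 0.00827, adjusted p = 0.174). The endothelial gene Pecam1 and the neuroendocrine gene Chga gave r = -0.10 and -0.09. Without tumors 1 and 11, the farthest from the median of Col3a1, Col1a2 gave r = 0.64 (exact permutation p = 0.114, adjusted p = 0.371), so its call, though not its sign, rests on those tumors. Other pairs moved more without them. Fn1 went from r = 0.31 to -0.91 (exact permutation p = 0.00417, adjusted p = 0.0875), Col5a2 from 0.26 to -0.80 (exact permutation p = 0.0506, adjusted p = 0.283) and Chga to 0.79 (exact permutation p = 0.0476, adjusted p = 0.283), and 0 of the 21 pairs passed. In tumors 1 to 5 and 9, without the arrays of lower mean signal, r was 0.87 (adjusted p = 0.340).

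Other genes of matrix assembly were read in 9 lists of 86 measured genes. None of the 86 passed the test toward the pancreas (1.63% of all genes did) and 8 did toward the pituitary (9.3%, against 4.29% of all genes), with a median difference of 0.01. At an unadjusted p under 0.05 there were 6 in the first direction and 17 in the second. The shares of all genes at that level are not given here, so these 2 counts cannot be set against them. Of 21 genes of collagen folding and processing, 2 were higher at the pituitary. Plod2, the lysyl hydroxylase of collagen telopeptides, read 5.24 to 7.45 in the pancreas and 8.49, 10.34 and 10.43 at the pituitary, without overlap (difference -3.19, adjusted p = 0.00316). Adamts3, a procollagen N-proteinase, differed by -1.18 (adjusted p = 0.000404) but was at or below the array median in all tumors. Serpinh1, the collagen chaperone HSP47, did not pass (difference -1.05, adjusted p = 0.404; named after its values were seen).

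The other calls were single genes of their lists: Efemp1 of 12 genes of elastic fibres, Pdgfd of 4 ligands, Timp4 of 9 genes of metalloproteinases and inhibitors, Agrn of 14 of the basement membrane, Ecm2 of 8 further leucine-rich proteoglycans and Tgfb2 of 8 of the TGF-β pathway. Efemp1, a fibulin, differed by -4.67 (adjusted p = 0.047), with 3.47 to 9.50 in the pancreas and 11.55, 11.69 and 9.71 at the pituitary. Pdgfd, a ligand of Pdgfrb, differed by -2.37 (adjusted p = 0.0311), with 9.32 in pituitary tumor 7. Timp4 (-2.13, adjusted p = 0.0408) was high in tumors 6 and 8, with 7.88 and 9.45, and not in tumor 7, with 5.68 against a pancreatic maximum of 5.79. Agrn, Ecm2 and Tgfb2 differed by -1.49, -1.62 and -1.07 (adjusted p = 0.0366, 0.00934 and 0.0465), and Ecm2 was at or below the array median in all tumors. No gene of the lists of crosslinking enzymes (4 genes) or collagen receptors (6 genes) passed. Plod2, Adamts3 and Ecm2 were called in all 12 fits with 1 tumor left out, and each of the other 5 in 6 or fewer. The number called toward the pituitary was 3 without pituitary tumor 6 or pancreatic tumors 3, 4 or 12, 4 without pituitary tumor 8, 5 without pancreatic tumors 1 or 11, and 2 without pituitary tumors 6 and 8 together. With array weights 14 were called toward the pituitary and 2, Lama5 and P4hb, toward the pancreas.

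Marker genes of other cells moved with the sites. Glial markers had a mean log2 signal over 8 genes of 10.37 in pituitary tumor 6, 6.97 in tumor 7 and 9.92 in tumor 8, against 5.63 to 6.55 in the pancreas, and 3 of the 8 passed the test. Zic1, a gene of meninges and dorsal brain, was 9.36 in tumor 6, 3.59 in tumor 7 and 12.42 in tumor 8. It is 1 of 5 markers of meninges, of which 1 passed the test, toward the pituitary. Their mean was 8.40, 5.95 and 8.61 in tumors 6, 7 and 8, against 4.97 to 7.48 in the pancreas. Pdgfra and Timp4 were high in the same tumors 6 and 8. So was Sparc on the probe set used, though tumor 6 lay within the pancreatic range on another. Col1a2 at 13.13 and Plod2 at 10.34 were also high in tumor 7, where glial signals were lowest of the 3. The part of brain tissue in the pituitary values was not tested. Without tumors 6 and 8, tumor 7 alone stood for the pituitary, with its spread assumed to be that of the pancreatic tumors. Lox (difference -3.55) and Col24a1 (difference -1.29) then passed the threshold, both from that 1 tumor, in which Col24a1 lay below the array median.

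Epithelial markers were higher in the pancreas (3 of 6 genes: Krt7, Krt8 and Cdh1), as was the acinar gene Cela1 (1 of 7). The 7 acinar markers had a mean log2 signal of 12.84 in pancreatic tumor 3, 11.96 in tumor 4 and 9.88 in tumor 10. The other pancreatic tumors had 6.06 to 8.14. Mmp2 and Timp1 were highest in tumor 3, and what part acinar tissue had in these values was not tested. Endothelial markers had a median difference of 0.82 over 10 genes and pericyte and smooth muscle markers of 0.19 over 8, and none of either passed, nor did any of 9 leukocyte or 4 fat markers. Both vessel lists were lowest in pancreatic tumor 2, at mean signals of 6.06 and 6.38, and their highest means were in tumor 9 (endothelium, 7.72) and tumor 5 (pericytes, 7.73). Hepatocyte markers had a mean of 14.39 over 5 genes in pancreatic tumor 2, 11.66 and 11.97 in tumors 3 and 4, and 5.93 to 8.69 in the other pancreatic tumors. Neuroendocrine markers had 8.87 in tumor 2 and 12.13 to 13.04 in the other pancreatic tumors. Fn1 and Col5a2 were highest in tumor 2, and what part liver tissue had in these values was not tested.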

How the data were processed

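RNA of 12 tumors was hybridized to Affymetrix MG-430_2.0 arrays. The authors normalized the arrays against each other and deposited the log2 signal of each probe set. The methods name Partek Genomics Suite, with no version, and RMA, without stating which of them made these values. The signals were used unchanged, and the small number of arrays is among the limits on precision. Of 45101 probe sets, 64 controls were left out. The platform annotation gave 34945 of the others 1 symbol, 932 several and 9160 none here, and 34741 matched RefSeq by Entrez identifier. Positions are on GRCm38.p6, since the array files name no build.

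Sites were compared with lmFit and eBayes of limma 3.58.1 (R 4.3.3), adjusted after Benjamini-Hochberg over 45037 probe sets with a threshold of 0.05; intervals are 95%. The fit was tested on simulated data. Tables, permutation tests and figures were made in Python 3.11.15 with pandas 2.3.3, scipy 1.17.1, numpy 2.4.6 and matplotlib 3.10.9. The members and lists were chosen with earlier results of these data known. The text names the 3 marker genes, the 13 other genes, Col1a1, Col4a1, Col4a2 and Col6a3, members past the threshold, the 5 with the largest difference and the 5 with the largest SD, members with a pancreatic tumor apart, and up to 4 genes past the threshold of each list. Alternatives were other normalizations, variances, array weights, filters and probe set rules, a log2 difference over 1, and each tumor left out. Leaving out tumors 10, 11 and 12, or 6 and 8, listing each probe set, and the settings of the matrix lists other than median centring and each tumor left out were chosen after seeing the data.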

Additional observations from a re-analysis of the deposited data

Results flagged for a closer look

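In 10 of the 55 members (18.2%) 1 pancreatic tumor stood apart from the other 8 by Dixon's test, which chance alone flags in about 1 in 20 groups and which flagged 16.2% of all genes here. Tumor 2 was highest for Fn1 (12.20), Col5a2 (11.72) and Col6a5 (3.46). Tumor 5 was highest for Col27a1 (10.50), Col4a4 (5.87) and Col4a6 (6.04). Tumor 9 was highest for Col6a3 (8.99) and Col19a1 (6.11), tumor 11 for Col20a1 (6.84) and tumor 12 for Col17a1 (4.82). Col6a5 and Col17a1 were at or below the array median in all 12 tumors, and Col4a4 and Col19a1 in 11. Col5a2 was highest in tumor 2 on its second probe set too (9.43), whereas tumor 5 did not stand apart on the second probe set of Col27a1 (6.91).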

How the results depend on the processing

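No paired analysis was possible because the labels do not tie a tumor to a mouse, so tumors of the same mouse could not be matched. Over 28 named members and 22 settings, 559 of 611 differences kept their direction and their side of the threshold, 15 fell short of it, 13 passed it and 24 turned. With tumors 6 and 8 left out, the difference turned for Dcn (0.45), Lum (0.41), Mmp2 (-0.73), Col19a1 (0.32), Col6a3 (-0.0902), Col1a1 (-0.0471), Col20a1 (0.0351) and Sparc (0.0009), none of which was called. Without tumors 10, 11 and 12 it turned for Col19a1 (0.0296) and Pdgfrb (0.0208), with median centring for Col19a1 (0.021), and with other probe set rules for Col4a4 (-0.0216 for the mean of its probe sets, -0.30 for the probe set chosen by group means). With 1 tumor left out, differences ranged from -0.19 to 0.12 for Col19a1, -0.55 to 0.007 for Col20a1, -0.0697 to 0.34 for Col4a4 and -0.0099 to 0.98 for Mmp2.

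Members higher in the pancreas numbered 1, and 4 with array weights, 2 with the filter, the mean of probe sets, median centring or quantile normalization, and 0 with an unmoderated variance, without tumors 10, 11 and 12 or without 6 and 8 (0 to 2 with 1 tumor left out). Members higher at the pituitary numbered 2, and 6 with array weights, 4 with the mean of probe sets, and 1 without tumors 10, 11 and 12 or with a log2 difference over 1 (1 to 3). Of the 109 probe sets of the members taken singly, 1 was higher in the pancreas and 6 at the pituitary. Of all probe sets, 533 were higher in the pancreas, 1849 with array weights, 214 without tumors 10, 11 and 12 and 61 without 6 and 8 (172 to 886). At the pituitary 1552 were higher, 3179 with array weights, 926 with the filter, 967 with an unmoderated variance, 571 without tumors 10, 11 and 12 and 488 without 6 and 8 (656 to 2000). Genes of the 9 matrix lists higher in the pancreas numbered 0, and 2 with array weights (Lama5 and P4hb) or the mean of probe sets (Eln and Lama5), 1 with quantile normalization (Lama5) or without tumors 10, 11 and 12 (Tgfb1) (0 to 1). Those higher at the pituitary numbered 8, and 14 with array weights, 5 with the filter or quantile normalization, 3 with an unmoderated variance and 2 without tumors 10, 11 and 12 or without 6 and 8 (3 to 7). The pairs with Col3a1 that passed numbered 1, and 0 without tumors 1 and 11 or without 10, 11 and 12. The cause of these changes was not tested, but fewer tumors enter the fits that leave some out. On the probe set used, 11 of the 55 members were at or below the array median in all tumors and 21 in some of them, which limits what can be read from those signals.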
